A study of Mus musculus with 5 samples.

Results

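The loci of 5 transcription factor genes were examined in β-catenin ChIP-seq peak lists from mouse embryonic stem cells. The genes were T, which encodes Brachyury, Cdx1, Cdx2, Sp5 and Sp8. The members were the deposited peaks whose summit lay in 1 fixed mm9 window per gene, and 48 of 44750 peaks met this rule. The T window covered 120 kb of chromosome 17 (8570000 to 8690000) and the Cdx1 window 130 kb of chromosome 18 (61120000 to 61250000). The Cdx2 window lay on chromosome 5 (148060000 to 148170000), the Sp5 window on chromosome 2 (70260000 to 70370000) and the Sp8 window on chromosome 12 (120030000 to 120140000), each 110 kb wide. A gene table of another build gave only neighbour names: T lies next to Pde10a, Cdx1 between Slc6a7 and Pdgfrb, Cdx2 between Pdx1 and Urad, Sp5 between Myo3b and Erich2, and Sp8 between Sp4 and Abcb5. No peak was assigned to an exon, intron or start site, so a peak in a window may belong to a neighbour.

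Canonical Wnt signalling stabilises β-catenin, which has no DNA-binding domain of its own and reaches chromatin mainly through the TCF/LEF proteins. T is a T-box factor of the primitive streak and early mesoderm, and a long-known Wnt target. Cdx1 and Cdx2 are caudal-type homeobox factors that pattern the trunk and the intestine. Cdx2 is also needed for trophectoderm. Sp5 and Sp8 are zinc-finger factors of the Sp family. Sp5 responds to Wnt in many tissues, and both take part in Wnt responses of the early embryo.

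All cells were V6.5 embryonic stem cells in which a FLAG epitope and a biotinylation site were knocked into the endogenous β-catenin gene, Ctnnb1. They were grown with serum and LIF on feeder cells from DR4 mice. The protocol names BirA, the enzyme that biotinylates the tag, in the tagged cells. It also describes enriching stem cells by letting the other cells settle on gelatin. The 5 samples comprise 3 ChIP libraries and 2 inputs. For 2 ChIP libraries the cells had received CHIR99021, an inhibitor of the kinase GSK3, at 3 µM, and the tag was captured with anti-FLAG in one and with streptavidin in the other. The third ChIP library is labelled DMSO, the vehicle, with streptavidin capture, although its run name says FLAG while its header names a biotin alignment. The CHIR99021 dose reads 3 mM in the extraction protocol and 3 µM in the treatment labels. The treatment time is 16 hours in the protocol and 24 hours in the series text. Inputs entered only as controls of the authors' peak calls, and both CHIR99021 lists share 1 input. Each group had 1 library, so no value has a replicate error and no test between conditions was possible. Untagged cells were not analysed here. The anti-FLAG library had 16100920 unique tags and the CHIR99021 streptavidin library 11934863. For DMSO no depth is known.

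β-Catenin peaks were present at all 5 loci after CHIR99021, with both captures. The anti-FLAG list held 17 peaks in the windows, of 16069, and the CHIR99021 streptavidin list 23, of 15947. The DMSO list held 8, of 12734. Tags are the sequenced reads that the authors counted in a peak. Anti-FLAG peaks held 24 to 471 tags with a median of 86.0, against 39.0 over that whole list. CHIR99021 streptavidin peaks held 16 to 481 with a median of 65.0, against 34.0. DMSO peaks held 6 to 9 tags, with 6.00 as the median of that list. Peak numbers and tags of the DMSO list are not comparable with the others, since the peak caller used a shift of 30 bp for it, against 185 and 214 bp.

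**Figure D1:**
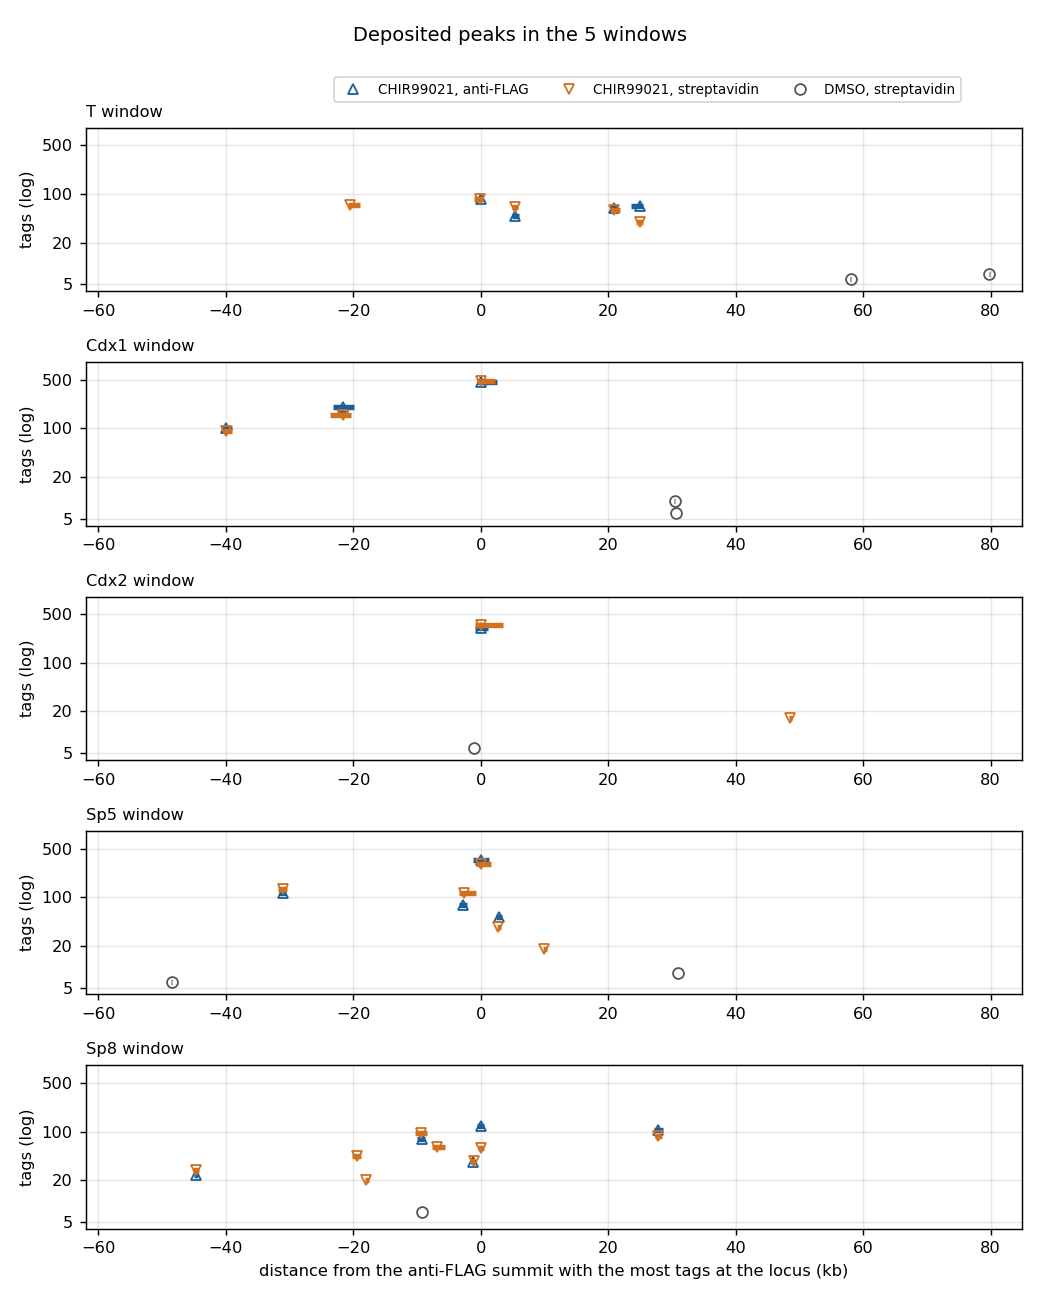
Each panel shows 1 window, with the distance in kb from the anti-FLAG summit that had the most tags on the x axis and tags per peak on a log y axis. Lines span the peaks, upward triangles mark anti-FLAG summits, downward triangles CHIR99021 streptavidin summits and circles DMSO summits. Blue and orange symbols coincide at most sites, and DMSO peaks lie at 6 to 9 tags.

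The windows differed in how their peaks were arranged. Cdx2 had a single anti-FLAG peak, Cdx1 3, T and Sp5 4 each, and Sp8 5. As background, the genome was cut into tiles of the same width from the first peak of each chromosome. At least 4 anti-FLAG peaks were found in 2.97% of tiles at the width of the T window and in 2.55% at that of Sp5. At least 5 were found in 1.05% (Sp8), at least 3 in 8.64% (Cdx1) and at least 1 in 41.3% (Cdx2). In the CHIR99021 streptavidin list the windows held 5 peaks at T, 3 at Cdx1, 2 at Cdx2, 5 at Sp5 and 8 at Sp8. The shares of tiles with at least as many were 1.22%, 8.49%, 16.0%, 0.975% and 0.0642% in that order, the last being 15 of 23374 tiles. The windows were drawn around known genes and tiles were not, so the shares are a description. At Cdx2 the anti-FLAG peak number is common in the genome. At Sp8 the streptavidin peak number is rare.

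Summed over the windows as drawn, Cdx1 had the most tags and T the fewest, but the place of T rested on the window edge. With windows 20 kb wider on each side, chosen after seeing the data, T had 464 anti-FLAG tags in place of 264 and 496 streptavidin tags in place of 317. It then lay above Cdx2, which stayed at 315 and 363. Sp8 also rose, to 505 anti-FLAG and 545 streptavidin tags, nearer to Sp5, which stayed at 583 and 606. The anti-FLAG tags were 772 at Cdx1, 583 at Sp5, 364 at Sp8, 315 at Cdx2 and 264 at T. With streptavidin after CHIR99021 they were 729, 606, 431, 363 and 317, in the same order of loci. Exact 95% Poisson intervals for the windows as drawn cover counting error only. They separated Cdx1 (718 to 828 anti-FLAG tags) from Sp5 (537 to 632) and Sp5 from Sp8 (328 to 403). No intervals were computed for the wider windows, so the separation of Sp5 from Sp8 is stated only for the windows as drawn. The anti-FLAG intervals of Sp8, Cdx2 (281 to 352) and T (233 to 298) overlapped from neighbour to neighbour. In the streptavidin library those of Sp8 (391 to 474) and Cdx2 (327 to 402) overlapped, as did Cdx2 and T (283 to 354). Per 1000000 unique tags of the library, the anti-FLAG values ran from 16.4 at T to 47.9 at Cdx1, and the streptavidin values from 26.6 to 61.1.

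**Figure D2:**
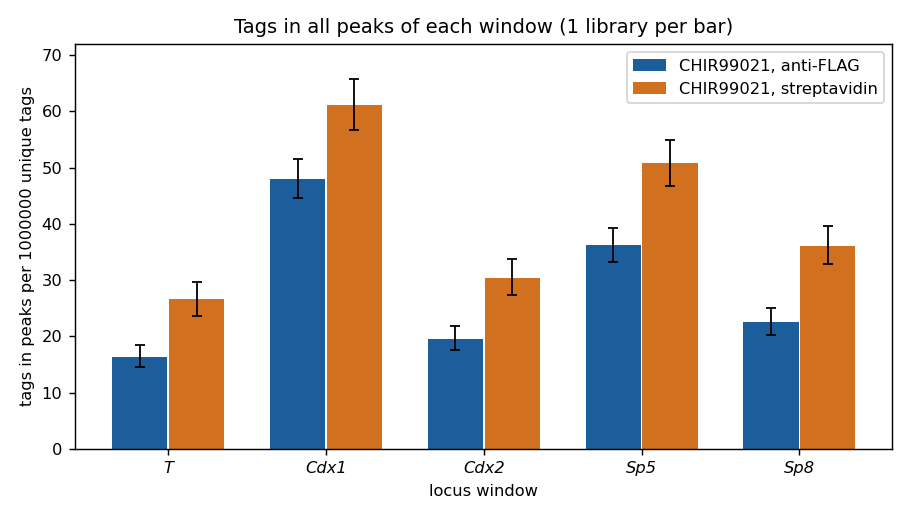
Bars give the tags in all peaks of a window per 1000000 unique tags of the library, for anti-FLAG and streptavidin capture after CHIR99021, and error bars are exact 95% Poisson intervals. Cdx1 is highest with 47.9 and 61.1 and T lowest with 16.4 and 26.6, though T lies above Cdx2 with windows 20 kb wider; the DMSO library has no known depth and is not drawn.

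RefSeq promoters are shown to place TCF/LEF-type letters directly upstream of these genes. The table matched T, Cdx2, Sp5 and Sp8. Printed are the 250 bases before the annotated start, 5′ to 3′ in the direction of the gene, in GRCm38.p6, whose coordinates cannot be set against the mm9 peaks. Whether a peak covers these bases was therefore not tested. Capitals mark CTTTG followed by AA, AT, TA or TT, searched on both strands, and none of the matches overlap.
Sp5, chr2:70474673-70474922, plus strand: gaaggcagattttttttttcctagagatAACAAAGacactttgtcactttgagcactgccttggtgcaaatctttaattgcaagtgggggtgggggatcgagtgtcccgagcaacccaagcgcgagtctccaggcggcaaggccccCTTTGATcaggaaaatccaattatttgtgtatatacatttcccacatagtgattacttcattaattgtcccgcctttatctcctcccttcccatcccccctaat
T, chr17:8434173-8434422, plus strand: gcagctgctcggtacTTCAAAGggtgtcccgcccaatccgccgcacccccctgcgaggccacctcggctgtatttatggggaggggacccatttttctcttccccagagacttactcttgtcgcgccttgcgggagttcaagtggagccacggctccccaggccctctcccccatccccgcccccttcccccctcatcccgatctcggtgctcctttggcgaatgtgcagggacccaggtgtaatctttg
Sp8, chr12:118846983-118847232, plus strand: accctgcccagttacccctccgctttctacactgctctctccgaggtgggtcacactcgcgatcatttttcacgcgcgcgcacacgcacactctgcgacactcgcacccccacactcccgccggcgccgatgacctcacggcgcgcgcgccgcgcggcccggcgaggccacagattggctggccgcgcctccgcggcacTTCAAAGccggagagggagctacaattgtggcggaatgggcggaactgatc
Cdx2, chr5:147307250-147307499, minus strand: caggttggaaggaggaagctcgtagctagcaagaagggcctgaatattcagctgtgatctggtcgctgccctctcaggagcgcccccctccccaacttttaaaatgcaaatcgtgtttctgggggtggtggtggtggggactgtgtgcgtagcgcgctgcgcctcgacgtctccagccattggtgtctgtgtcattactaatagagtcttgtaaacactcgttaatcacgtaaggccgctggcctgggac
Distances here count from the first capital of a match, as printed, to the start of the gene. Sp5 had 2 matches, CTTTGTT on the opposite strand at 222 bases and CTTTGAT on the gene's strand at 104 bases. T had 1, CTTTGAA on the opposite strand at 235 bases, and the printed Sp8 promoter had 1, CTTTGAA on the opposite strand at 51 bases. In the other two annotated Sp8 promoters and in that of Cdx2 these letters were not found. Of 32851 promoters of the same length, 14.8% held at least 1 match and 1.43% at least 2. A match is a stretch of letters, not a measured site.

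At Sp5 the tags gathered at 1 place. The strongest peak had its summit at 70313025 by anti-FLAG, with 338 tags and a fold enrichment of 32.10 over the local background as the authors' peak caller gave it. The streptavidin summit lay 5 bp away at 70313020, with 304 tags and a fold of 38.99. This peak held 58.0% of the anti-FLAG tags of the window's peaks. It was flanked at 2.78 kb by a peak of 78 anti-FLAG tags and 115 streptavidin tags. On the other side, at 2.82 kb, a weaker one held 52 and 37. The streptavidin peak of the first flank overlapped the strongest anti-FLAG peak, so these peaks made 1 merged region (70309648 to 70314591) with 416 and 419 tags. A separate peak 31.0 kb to the left of the main summit, towards lower coordinates, had 115 and 132 tags. Its folds of 32.36 and 33.17 were close to those of the main peak, although it was 1081 bp long by anti-FLAG against 2548 bp. A further peak with 18 tags, 9.97 kb on the other side, was called with streptavidin alone.

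Cdx1, a target of Wnt in the trunk, had the peak with the most tags of all members. It lay from 61193878 to 61197062 and held 471 anti-FLAG tags, and its streptavidin counterpart held 481. Folds were 17.72 and 21.44. By p score, which is 10 times −log10 of the peak caller's p-value, it ranked 148 in the anti-FLAG list and 50 in the streptavidin list. The summits, at 61194522 and 61194552, lay near the left end of the peak, and enrichment was called for 2.54 kb beyond the anti-FLAG summit on the right, towards higher coordinates. A peak 21.6 kb to the left was of similar width, 3246 bp by anti-FLAG, with 201 and 157 tags and folds of 12.05 and 13.08. The third, 39.9 kb to the left, had 100 and 91 tags and folds of 15.72 and 15.42. All 3 Cdx1 peaks inside the window were found by both captures and none by 1 capture alone.

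Cdx2 had 1 strong region. Its anti-FLAG peak (148115124 to 148117130) held 315 tags with a fold of 32.40 and a p score of 1599.64, the highest of the 17. The streptavidin peak began 3 bases earlier, at 148115121, but ended at 148119466 and so was 4346 bp long against 2007 bp. It held 347 tags with a fold of 39.90, and its summit lay 22 bp from the anti-FLAG summit. The other streptavidin peak of the window was 48.6 kb away and held 16 tags, the fewest of the 23.

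At T, no peak stood out. The 4 anti-FLAG peaks held 86, 49, 62 and 67 tags, with summits at 8602045, 8607481, 8623037 and 8627070 and folds of 8.94, 7.84, 6.96 and 6.03. The streptavidin peaks at these sites held 84, 65, 58 and 40 tags, and their folds were 11.51, 12.86, 9.17 and 11.31. The sites form 2 pairs, 5.44 kb apart within the first pair and about 21.0 and 25.0 kb from the first site for the others. The top anti-FLAG peak held 32.6% of the tags of the window's peaks, against 61.0% at Cdx1. By p score none of these peaks was in the top 10% of either list, and the leading one was at the top 19.0% by anti-FLAG. A further peak, with 70 tags but a fold of 4.20, was called with streptavidin alone 20.5 kb to the left.

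Sp8 had the most peaks, spread over 72.4 kb by anti-FLAG. The leading anti-FLAG peak (120094237 to 120095442) held 120 tags with a fold of 24.18, while streptavidin gave 58 tags and 18.25 there. By streptavidin the most tags, 96, lay 9.29 kb to the left, where anti-FLAG gave 78. At T, Cdx1, Cdx2 and Sp5 both captures put the same site first by tag count, and at Sp8 they did not. Cdx2 had only 1 anti-FLAG peak to put first. By p score the captures also differed at T, where anti-FLAG was highest at 8602045 (208.00) and streptavidin at 8607481 (228.44). The Sp8 peak 27.7 kb to the right of the leading one had 105 and 86 tags and the highest streptavidin fold of the window, 26.18. Weaker shared peaks held 37 and 38 tags next to the leading peak, and 24 and 28 tags 44.7 kb to the left. Of the 8 streptavidin peaks, 3 had no anti-FLAG peak. They held 45, 20 and 60 tags with folds of 5.58, 5.19 and 4.64.

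**Figure D3:**
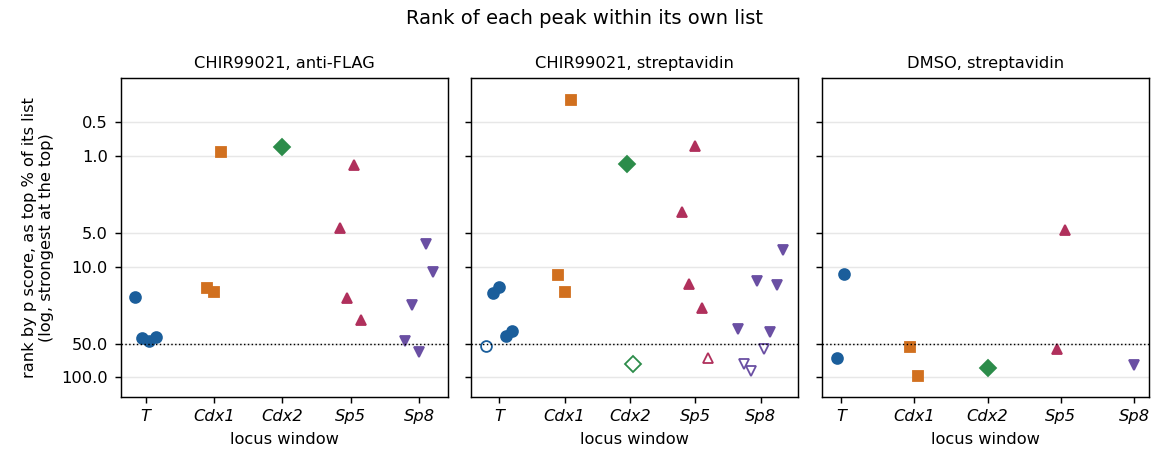
Each symbol is 1 peak, placed by its rank by p score as a top percentage of its own list on a log y axis, for the windows on the x axis. Open symbols are CHIR99021 streptavidin peaks without an anti-FLAG peak, and the dotted line marks the middle of a list. Leading peaks of Cdx1, Cdx2 and Sp5 lie at or above the top 1.21% in both CHIR99021 lists, whereas T peaks begin at 19.0% and 15.3%.

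By p score and fold enrichment, most CHIR99021 peaks of these loci ranked in the stronger part of their lists, and most DMSO peaks did not. By p score, 16 of 17 anti-FLAG and 17 of 23 CHIR99021 streptavidin peaks were in the top 50%, and 5 of each in the top 10%. The median rank was the top 19.0% and 17.2%. Fold enrichment exceeded the list's median for 13 of 17 and 18 of 23. Peak length did so for 14 and 18, with medians of 1214 and 1416 bp. Of the 8 DMSO peaks, 2 were in the top 50% by p score, with a median rank of 61.2%, and 3 exceeded the median fold of their list. By tag count, where many values are tied, their median rank was the top 22.6%, and 4 exceeded the list's median.

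Each anti-FLAG site inside the windows was also found with streptavidin, but an anti-FLAG peak 2.53 kb outside the Cdx1 window was not. All 17 anti-FLAG peaks of the windows shared at least 1 bp with a streptavidin peak (exact Clopper-Pearson 95% interval 80.5 to 100%, counting error only), against 57.6% over the whole anti-FLAG list. Among anti-FLAG peaks with a p score of at least 73.33, the lowest in the windows, the share was 79.5%. That set was not matched in strength: 73.33 stood at the top 58.8% of the list, and the windows' peaks had a median of 19.0%. The 17 peaks come from 5 chosen loci, so the interval does not serve as a test. In the other direction 17 of 23 streptavidin peaks (73.9%, interval 51.6 to 89.8%) lay in an anti-FLAG peak, against 57.8% over the list, a value within the interval. The shared streptavidin peaks had p scores of at least 93.24 and the 6 unshared ones 54.09 to 78.81, with 16 to 70 tags and folds of 4.20 to 9.18. Over the whole list, 90.2% of streptavidin peaks from 93.24 upward and 33.9% of those below it had an anti-FLAG partner. No peak of the windows was called by anti-FLAG alone, although that library was the deeper one. After merging, 16 of 22 CHIR99021 regions (72.7%, interval 49.8 to 89.3%) were held by both lists, against 40.2% of all merged regions.

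Summits of both captures lay close together. The 17 pairs were 0 to 130 bp apart with a median of 32.0 bp, against 42.0 bp over 9255 overlapping pairs. Within 50 bp lay 12 of the 17 (70.6%), and 56.8% of all pairs did. No interval was computed for this share, and most peaks of the windows ranked in the stronger part of their lists. A difference from all pairs was therefore not tested. At T the distances were 42, 0, 44 and 9 bp, and at Cdx1 12, 1 and 30 bp. At Sp5 they were 34, 94, 5 and 77 bp, with the main peak closest. The widest pairs, at 124 and 130 bp, were at Sp8, whose weakest shared peak by tags had a distance of 0 bp.

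**Figure D4:**
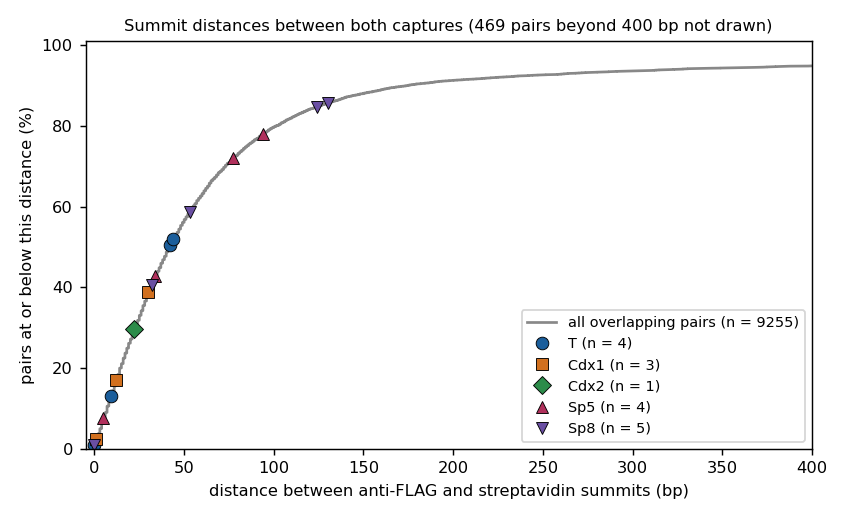
The grey curve gives the percentage of all overlapping anti-FLAG and streptavidin pairs (n = 9255) whose summits lay within the distance in bp on the x axis, and symbols mark the 17 pairs of the windows. The symbols lie on the curve by construction, so only their distances, 0 to 130 bp, are informative. Beyond 400 bp, 469 pairs are not drawn.

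Relative to depth, streptavidin gave more tags than anti-FLAG in 13 of the 16 shared regions, and it did so in 68.5% of all shared regions. Pooled over the 16 regions the ratio of tags per 1000000 unique tags was 1.30 (exact 95% conditional binomial interval 1.23 to 1.38, counting error only). Over all 9113 shared regions it was 1.14. The interval compares 2 libraries, not the captures in general. Per kb of called peak the ratio was 1.14 in the windows and 1.08 over all shared regions. Relative to the tags in all peaks of each list it was 1.11 in the windows and 0.98 over all shared regions. On that scale streptavidin no longer led over all shared regions, while the ratio of the windows stayed above theirs. Cdx2 had a ratio of 1.49 (1.27 to 1.74), but per kb, over the longer streptavidin peak, 0.69. At the leading Sp8 region the ratio was 0.65 (0.47 to 0.90), a value that 3.80% of all shared regions did not exceed. The T region from 8606896 had 1.79 (1.22 to 2.65). The remaining ratios were between 0.81 and 1.66.

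**Figure D5:**
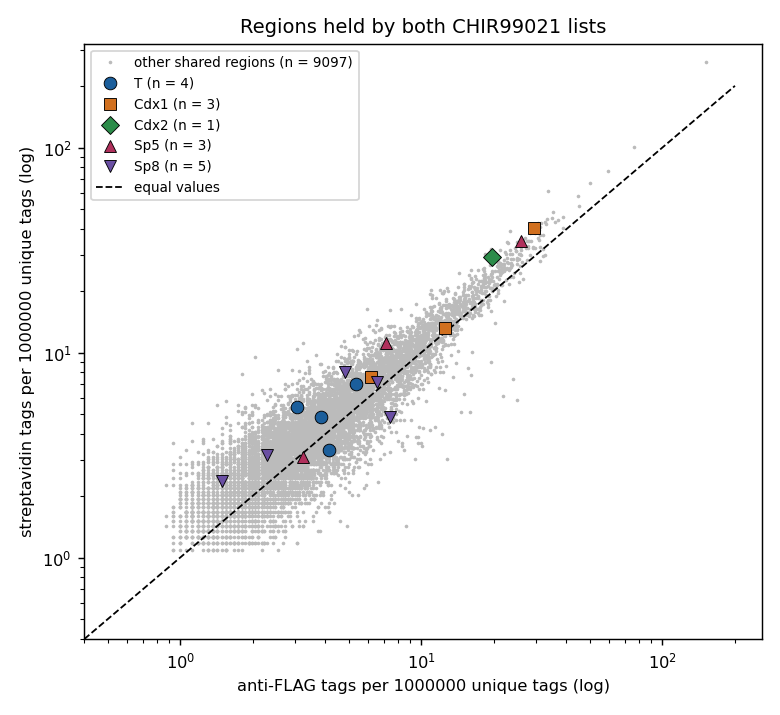
Tags per 1000000 unique tags in the anti-FLAG library (x axis, log) and in the CHIR99021 streptavidin library (y axis, log) for regions held by both lists; coloured symbols are the 16 regions of the windows, grey points the other 9097 and the dashed line equal values. Of the 16 regions, 13 lie above the line, and the leading Sp8 region lies below it.

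Most CHIR99021 regions of these loci had no DMSO call. Of the 16 shared regions, 1 contained a DMSO peak (6.25%, exact interval 0.158 to 30.2%), against 12.9% of all shared regions, which lies within the interval. It was the Sp8 region from 120084631 to 120086418, with 7 DMSO tags and a summit 23 bp from the anti-FLAG summit. That region held 78 anti-FLAG and 96 streptavidin tags after CHIR99021, fewer than several regions without a DMSO peak. The strongest regions of Cdx1, Cdx2 and Sp5 and all 4 regions of T held none. At Cdx2 a DMSO peak of 6 tags ended 186 bp before the streptavidin peak and lay 1.10 kb from the anti-FLAG summit. The other 6 lay away from CHIR99021 peaks: those of T by at least 9.05 kb, both of Cdx1 by at least 27.2 kb and those of Sp5 by at least 16.6 kb. In all, 1 of 8 DMSO peaks of the windows (12.5%) lay in a CHIR99021 peak, while 15.0% of all DMSO peaks did and 11.2% of those with 9 tags or fewer. DMSO peak numbers of 2 at T, Cdx1 and Sp5 and of 1 at Cdx2 and Sp8 were common in tiles of these widths, with shares of 13.8%, 15.4%, 12.2%, 35.4% and 35.4%. Where no DMSO peak was called, the number of DMSO tags is not given by the table, so nothing limits the occupancy there, and a change with CHIR99021 was not tested.

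The window edges decided the membership of a few peaks. Within 20 kb outside the windows lay 4 anti-FLAG and 5 CHIR99021 streptavidin peaks and no DMSO peak. Just left of the T window, a shared site 0.864 kb outside by its anti-FLAG summit (8569136) had 71 and 44 tags, with a fold of 16.83 by anti-FLAG, above those of the 4 peaks inside. Another, from 8563629, had 129 and 88 tags, more than any peak inside. Right of the Sp8 window, 16.4 kb outside, a shared site had 141 and 114 tags, again more than any inside. The nearest streptavidin peak inside an edge was that of Cdx2 with 16 tags, at 5.40 kb.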

How the data were processed

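β-Catenin ChIP-seq was described at 5 loci in 3 peak tables. The members, windows and lists were chosen with earlier results of these data known. Per the file headers, the authors called peaks with MACS (version not given in the sources used here) from ELAND alignments, 1 ChIP against 1 input, at a p-value cutoff of 1.00e-05. Coordinates are mm9 (submitters' processing notes). Per the file headers, the deposited columns are the raw tag count of a peak, the score (10 times −log10 of p), the fold ratio to the caller's local background, and the FDR as a percent. Fold and score are the authors' values and were ranked only within a list. Where values of both lists are printed side by side, they were not scaled to each other. The depths given are unique tags per the file headers, which give none for DMSO.

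A peak belonged to a window by its summit (start + summit − 1). Peaks sharing at least 1 bp were taken as overlapping, and overlapping or touching CHIR99021 peaks were merged. An anti-FLAG peak's partner was the overlapping streptavidin peak with the nearest summit. Every peak of a window was accounted for. Tags carry exact Poisson and shares Clopper-Pearson 95% intervals, for counting error only, since ChIP-seq reads without molecular identifiers are not independent molecules. Alternatives changed overlap, thresholds, windows, scaling, ranking and tiling; backgrounds above a p score were added after seeing the data. The planned list of other Wnt targets was not used, since no mm9 gene positions were at hand. Simulated lists served to test the code, which recovered 1500 of 1500 planted overlaps. Software was matplotlib 3.10.9, scipy 1.17.1, pandas 2.3.3 and numpy 2.4.6 under Python 3.11.15.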

Additional observations from a re-analysis of the deposited data

How the results depend on the processing

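Of 53 other values for the main results, 39 stayed within their limits (a factor of 1.5 for counts, the 95% interval for other values) and 14 moved. A fold enrichment of at least 10 left 9 anti-FLAG peaks, 14 CHIR99021 streptavidin peaks and 9 shared regions, in place of 17, 23 and 16. An FDR of at most 1% left 0 DMSO peaks in the windows, as did a p score of at least 100. The highest DMSO p score there, 94.16, stood at the top 4.66% of its list, so fewer than 4.66% of all DMSO peaks reach 100. The 0 by p score is therefore not read as particular to the loci. The share of the whole DMSO list that passes the FDR limit was not computed, so whether the 0 by FDR is particular to them was not tested. With DMSO peaks of at least 10 tags, 0 shared regions held one, which was fixed in advance because the windows' DMSO peaks held 6 to 9 tags. The streptavidin to anti-FLAG tag ratio, 1.30, was 1.11 relative to the tags in all peaks of each list and 1.14 per kb of peak; over all shared regions these values were 1.14, 0.98 and 1.08. Median ranks moved by fold and by tag count from the top 19.0% to 31.5% and 16.0% for anti-FLAG, from 17.2% to 27.5% and 19.1% for CHIR99021 streptavidin, and from 61.2% to 59.0% and 22.6% for DMSO, where many tag counts are tied. The cause of the moves was not tested beyond the fewer peaks that enter. Every anti-FLAG peak of the windows that passed a setting had a partner under all alternatives of overlap and threshold but 50% reciprocal overlap (88.2%). Windows 20 kb wider would add the Cdx1 peak of 22 anti-FLAG tags, which had no partner. Tile shares moved within their intervals in 15 of 15 cases. No paired analysis was possible because there was only 1 library in every group. Without a DMSO depth, sites lacking a DMSO call cannot be given a limit.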

Other observations

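The false discovery rates of the anti-FLAG list did not follow the strength of these peaks. The 3 with the most tags, the leading peaks of Cdx1, Sp5 and Cdx2, had rates of 1.55 to 2.24%, and the other 14 had 0.33 to 0.83%. A limit of 1% would therefore remove the anti-FLAG peaks with 471, 338 and 315 tags and keep that of Sp8 with 24. In the streptavidin list the counterparts of these peaks had a rate of 0.00%, and the same limit removed peaks of 16 to 45 tags.

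Over all shared regions, those with at least 300 anti-FLAG tags, a limit chosen after seeing the data, had a median streptavidin to anti-FLAG ratio of 1.18 (n = 176), against 1.14 for the others (n = 8937). The merged regions of Cdx1, Sp5 and Cdx2 above that limit had 1.38, 1.36 and 1.49.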
